A study of Mus musculus with 15 samples.

Results

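The 36 genes described here are a list of lymphocyte genes, 16 of T cells, 11 of natural killer (NK) and cytotoxic cells and 9 of B and plasma cells. They were matched by gene symbol to the Ensembl gene IDs of the deposited tables, where each symbol met a single ID among 37620. RNA had been sequenced from lung metastases of B16-F10.1, a pigmented mouse melanoma line that settles in the lung after injection into the blood. Male C57BL/6J mice aged 8 weeks had received 100000 cells by the tail vein, and after 21 days they ate a test diet for 2 weeks. The diets differed in methionine, an essential amino acid: a deficient diet at 0% (n = 3 libraries), a restricted diet at 25% (n = 3), an adequate diet whose percentage is not stated (n = 3), and a supplemented diet at 300% (n = 6). The supplemented diet is known from the sample labels only. All 4 groups share host strain, sex, tumour line and tissue, and no tumour-free lung or cultured tumour cell is among the 15 libraries. Whether the libraries of a diet come from different mice is not stated, so a p-value here reflects the spread among these libraries, which may be technical.

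T cells carry an antigen receptor that signals through the CD3 chains and zeta, a kinase cascade that begins with Lck and Zap70, and adaptors such as Lat. NK cells and cytotoxic T cells kill by releasing perforin and granzymes, and their inhibitory and activating receptors belong in part to the killer lectin-like (Klr) family. B cells signal through Cd79a and Cd79b beside membrane immunoglobulin, take their identity from the transcription factor Pax5, and leave off much of that programme when they become plasma cells. NK and T cells are known for limiting B16 colonies in the lung of C57BL/6 mice, which have all of these lymphocytes. In bulk RNA, fewer lymphocytes and less RNA per lymphocyte cannot be told apart.

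Promoters of some members are printed here. Cd3e and Cd3d are shown as genes that define the T cell receptor complex, and Lck, Pax5 and Cd79a as the members whose levels followed their own groups least over the 15 libraries. Each line gives the 250 bases before a transcript start, 5′ to 3′, from the RefSeq promoter table (build GRCm38.p6, not the build of the counts). Capitals mark the word AGGAAG on either strand, which holds the GGAA core that ETS-family factors bind. Lck has a proximal start, listed first, and a distal start.
Cd3e chr9:45009612-45009861 minus strand: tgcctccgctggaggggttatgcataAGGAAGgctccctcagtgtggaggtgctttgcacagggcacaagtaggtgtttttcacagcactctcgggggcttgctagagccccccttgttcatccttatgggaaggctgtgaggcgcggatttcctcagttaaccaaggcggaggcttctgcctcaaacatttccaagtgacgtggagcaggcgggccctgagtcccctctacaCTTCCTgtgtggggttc
Cd3d chr9:44981536-44981785 plus strand: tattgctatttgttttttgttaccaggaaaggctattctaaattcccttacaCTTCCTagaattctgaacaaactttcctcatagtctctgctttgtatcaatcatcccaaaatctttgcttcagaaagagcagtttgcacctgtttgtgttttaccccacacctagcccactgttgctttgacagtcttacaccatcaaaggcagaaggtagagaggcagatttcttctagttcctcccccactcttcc
Lck chr4:129558373-129558622 minus strand: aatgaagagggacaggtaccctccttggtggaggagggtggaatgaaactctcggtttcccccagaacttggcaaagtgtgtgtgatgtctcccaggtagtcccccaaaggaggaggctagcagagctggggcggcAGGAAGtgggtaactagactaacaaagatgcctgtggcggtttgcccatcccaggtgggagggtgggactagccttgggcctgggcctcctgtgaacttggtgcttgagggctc
Lck chr4:129573642-129573891 minus strand: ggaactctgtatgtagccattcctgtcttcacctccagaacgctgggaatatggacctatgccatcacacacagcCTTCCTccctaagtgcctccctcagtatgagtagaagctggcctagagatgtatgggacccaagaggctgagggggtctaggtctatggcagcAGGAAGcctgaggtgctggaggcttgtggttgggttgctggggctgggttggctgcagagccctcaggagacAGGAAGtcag
Pax5 chr4:44710695-44710944 minus strand: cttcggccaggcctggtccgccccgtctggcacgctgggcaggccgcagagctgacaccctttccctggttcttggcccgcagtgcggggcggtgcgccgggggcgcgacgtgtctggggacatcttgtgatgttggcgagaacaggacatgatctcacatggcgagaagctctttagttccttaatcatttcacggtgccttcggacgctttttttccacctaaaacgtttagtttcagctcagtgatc
Cd79a chr7:24897247-24897496 plus strand: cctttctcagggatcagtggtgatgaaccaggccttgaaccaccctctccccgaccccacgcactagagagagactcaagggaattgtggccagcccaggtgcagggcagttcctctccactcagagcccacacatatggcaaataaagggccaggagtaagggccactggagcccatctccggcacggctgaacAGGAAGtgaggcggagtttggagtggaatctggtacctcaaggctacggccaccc
The promoter table, whose windows also take in the 50 bases after the start, held 27 of the 36 members. AGGAAG was in a window of 8 of 11 T genes, 4 of 10 NK and cytotoxic genes and 1 of 6 B and plasma genes, against 38.4% of 27025 genes with a promoter in the table. The B gene with it was Cd79a, printed above, while the window of Cd3g, a CD3 chain not printed here, lacked it. The E-box words CACGTG and CATGTG, both bound by MITF, the master factor of melanocytes, were in 2 and 5 of the 27 members, against 8.09% and 15.9% of genes. Searches covered both strands, the words do not overlap each other, and a match describes letters and no binding.

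Lymphocyte RNA was scarce in these metastases. Over all 15 libraries the 36 genes together had 10185 counts: 5357 in the T genes, 1714 in the NK and cytotoxic genes and 3114 in the B and plasma genes. Library totals ran from 13107649 to 29994249 counts. The deposited TPM values allow for transcript length and so let levels be set between genes, and only Lck, Pax5 and Nkg7 averaged above 1 TPM. The median of the members' mean levels was 0.189 TPM, against 3.30 TPM over the 16001 genes that passed the filter on low counts, of which 71.3% averaged above 1 TPM. For scale, Tyr, the pigment enzyme of the melanoma cells, had 362 to 815 CPM (counts scaled to library size, with TMM factors) per library, while the summed CPM of all 36 members was 14.1 to 112.

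The filter kept 33 members, all 16 T genes, 9 NK and cytotoxic genes and 8 B and plasma genes. The 3 that failed it were Ifng, Ncr1 and Tnfrsf17. Ifng, the interferon that T and NK cells secrete, had 0 counts in every library, and since a count of 0 allows up to 3 counts, a low level was not detectable at this depth. Tnfrsf17, the BCMA receptor of plasma cells, had 3 counts in deficient replicate 1 and 1 count in supplemented replicate 6. Ncr1, the NK receptor NKp46, had 67 counts in 7 libraries.

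The libraries differed in how many members they showed at all. Restricted replicate 2 had 20 of the 36 members at 0 counts, among them 9 of the 11 NK and cytotoxic genes and 8 of the 16 T genes. Supplemented replicate 5 had 17 members at 0 and adequate replicate 3 had 14, whereas deficient replicate 1 had 1 at 0, and deficient replicate 3, restricted replicate 3 and supplemented replicates 4 and 6 had 2 each. The 3 libraries with most members at 0 lay in 3 different diets.

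**Figure D1:**
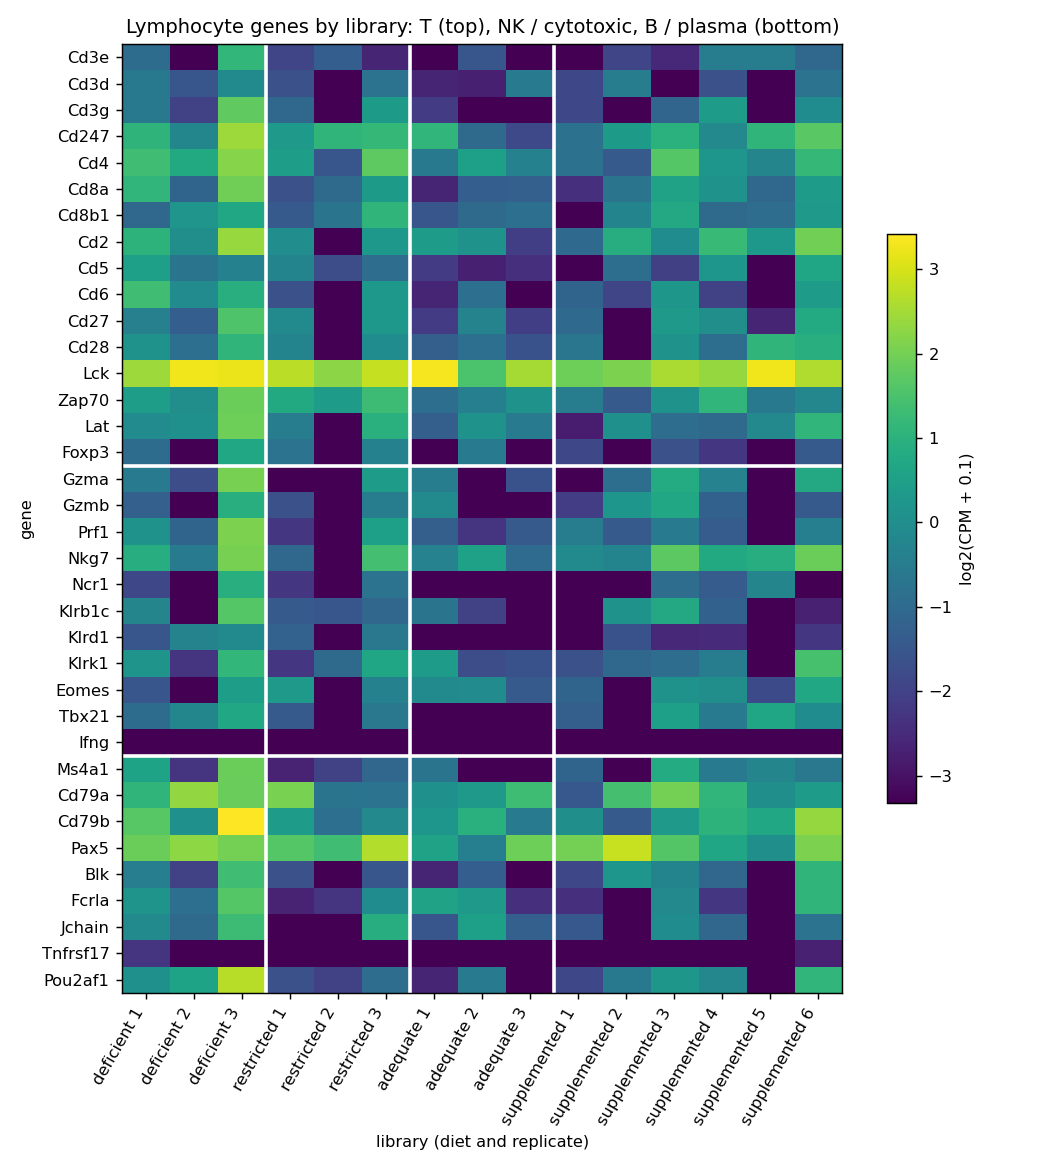
Level of each of the 36 genes in each library, as log2(CPM + 0.1), with genes down the page in T, NK and cytotoxic, and B and plasma blocks and libraries across in order of methionine. Lck and Pax5 are bright in most libraries, the dark columns are restricted replicate 2 and supplemented replicate 5, and deficient replicate 3 is bright over most rows.

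Deficient replicate 3 held the highest values for most of the list. Of the 33 members that passed the filter, 24 (72.7%) had their highest CPM there, against 22.9% of all genes tested. The same library had the highest summed CPM of 12 alveolar type 2 cell genes (8731, against a median of 937 over the 15 libraries), of 12 endothelial genes (1774, median 244), of 13 macrophage genes (2415, median 566) and of 8 genes of leukocytes in general (456, median 125). It also had the lowest summed CPM of 12 pigment genes (14990, median 23820). Sftpc, the surfactant gene that defines alveolar type 2 cells, had 2159 CPM in deficient replicate 3, 2.32 CPM in restricted replicate 2 and 0.186 CPM in supplemented replicate 5. The tissue label thus covers libraries with very different amounts of lung RNA, and the part of this in the values below was not tested. Where that library enters a contrast or a correlation, counts, medians and the main fold changes are also given without it.

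Summed over the 16 T genes, the level was 23.6, 18.7 and 51.8 CPM in the deficient, 16.3, 9.58 and 26.8 CPM in the restricted and 15.7, 10.4 and 10.1 CPM in the adequate libraries. In the supplemented libraries it ran from 7.63 to 28.5 CPM with a median of 18.1 CPM. The 3 deficient libraries lay above the 3 adequate libraries in this sum and overlapped both other diets. The 11 NK and cytotoxic genes summed to 11.2 ± 11.6 CPM in the deficient (SD, n = 3), 4.48 ± 4.75 in the restricted (SD, n = 3), 3.02 ± 1.81 in the adequate (SD, n = 3) and 6.61 ± 3.996 in the supplemented libraries (SD, n = 6). Here every pair of diets overlapped, since deficient replicate 2 reached only 2.71 CPM. The 9 B and plasma genes summed to 20.9 ± 13.01 CPM in the deficient (SD, n = 3), 7.95 ± 3.73 in the restricted (SD, n = 3), 6.61 ± 0.816 in the adequate (SD, n = 3) and 10.1 ± 5.00 CPM in the supplemented libraries (SD, n = 6). The lowest deficient library, at 13.1 CPM, lay above the highest restricted and the highest adequate library, at 11.1 and 7.14 CPM, and below the highest supplemented library at 17.7 CPM.

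**Figure D2:**
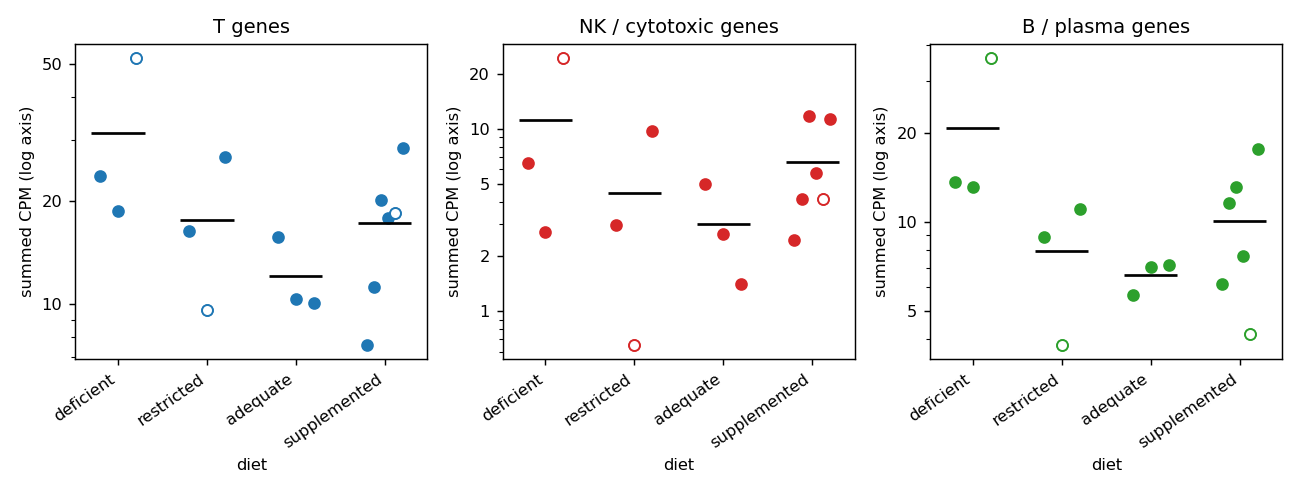
Summed CPM of the T, NK and cytotoxic, and B and plasma genes in each library (points) by diet, on log axes, with the mean of each diet as a line and deficient replicate 3, restricted replicate 2 and supplemented replicate 5 as open points. Deficient replicate 3 is the highest point in all 3 panels, and the NK and cytotoxic sum spreads most, over 0.656 to 24.4 CPM.

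Among the T genes, the chains and kinases of the antigen receptor come first. Cd3e, the epsilon chain that defines T cells, had 0.424, 0 and 2.09 CPM in the deficient, 0.166, 0.303 and 0.0617 CPM in the restricted and 0, 0.251 and 0 CPM in the adequate libraries, with 0 to 0.622 CPM and a median of 0.275 CPM in the supplemented libraries. Of its 96 counts 31 came from deficient replicate 3, and 4 libraries had none. Cd3g, the gamma chain, had 0.565, 0.151 and 3.31 CPM in the deficient, 0.387, 0 and 1.17 CPM in the restricted and 0.126, 0 and 0 CPM in the adequate libraries, with 0 to 1.21 CPM and a median of 0.269 CPM in the supplemented libraries. All 3 deficient libraries lay above all 3 adequate libraries for Cd3g, the lowest by a small margin.

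Cd247, which encodes the zeta chain, had 1.98, 0.753 and 5.27 CPM in the deficient, 1.16, 2.02 and 2.16 CPM in the restricted and 2.08, 0.401 and 0.182 CPM in the adequate libraries, with 0.485 to 3.13 CPM and a median of 1.52 CPM in the supplemented libraries. The diets overlapped for Cd247, which stayed above 0 in every library. Exons of Cd247 overlap exons of Pou2f1 on the opposite strand, which averaged 29.5 CPM against 1.70 CPM for Cd247, and whether the counting used strand is not given in the sources used here, so its level is uncertain. Lck, the kinase that starts receptor signalling, had 5.33, 9.63 and 9.19 CPM in the deficient, 6.52, 4.69 and 6.97 CPM in the restricted and 9.95, 2.76 and 5.64 CPM in the adequate libraries, with 3.702 to 9.61 CPM and a median of 5.43 CPM in the supplemented libraries. Lck was the most abundant member at 2.76 TPM on average, and the diets overlapped. Its highest CPM was in adequate replicate 1, whose TMM factor of 0.6903, the lowest of the 15 libraries, raises its CPM.

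The coreceptors and partner molecules come next. Cd4, the coreceptor of helper T cells, had 2.44, 1.61 and 4.46 CPM in the deficient, 1.27, 0.252 and 3.27 CPM in the restricted and 0.567, 1.304 and 0.682 CPM in the adequate libraries, with 0.278 to 3.03 CPM and a median of 0.902 CPM in the supplemented libraries. Cd8a, a chain of the coreceptor of cytotoxic T cells, had 2.05, 0.351 and 3.78 CPM in the deficient, 0.221, 0.404 and 1.17 CPM in the restricted and 0.0630, 0.301 and 0.318 CPM in the adequate libraries, with 0.0882 to 1.37 CPM and a median of 0.744 CPM in the supplemented libraries. In both genes every deficient library lay above every adequate library, while the restricted and supplemented libraries overlapped both. Cd8b1, the other chain of the Cd8 coreceptor, did not separate them. It had 0.388 to 1.55 CPM in the deficient and 0.252 to 0.455 CPM in the adequate libraries.

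Cd2, an adhesion receptor of T and NK cells, had 1.94, 0.903 and 5.13 CPM in the deficient, 0.885, 0 and 1.11 CPM in the restricted and 1.197, 1.003 and 0.136 CPM in the adequate libraries, with 0.397 to 3.84 CPM and a median of 1.42 CPM in the supplemented libraries. Its deficient and adequate libraries overlapped through deficient replicate 2. Foxp3, the factor of regulatory T cells, had 0.424, 0 and 1.55 CPM in the deficient, 0.498, 0 and 0.678 CPM in the restricted and 0, 0.602 and 0 CPM in the adequate libraries, with 0 to 0.274 CPM and a median of 0.143 CPM in the supplemented libraries. Foxp3 was at 0 in 6 of the 15 libraries, and its exons overlap those of Ccdc22 on the opposite strand, which averaged 36.8 CPM, so its few counts are uncertain. The other 8 T genes, Cd3d, Cd8b1, Cd5, Cd6, Cd27, Cd28, Zap70 and Lat, averaged 0.0973 to 0.443 TPM and reached at most 3.71 CPM in any library.

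Among the NK and cytotoxic genes, Nkg7, a granule membrane protein, was the most abundant at 1.10 TPM on average. Its values were 1.73, 0.602 and 3.99 CPM in the deficient, 0.387, 0 and 2.53 CPM in the restricted and 0.693, 1.35 and 0.409 CPM in the adequate libraries, with 0.723 to 3.67 CPM and a median of 1.67 CPM in the supplemented libraries. The diets overlapped. Gzma, the granzyme with trypsin-like activity, had 0.6003, 0.201 and 3.99 CPM in the deficient, 0, 0 and 1.23 CPM in the restricted and 0.630, 0 and 0.227 CPM in the adequate libraries, with 0 to 1.66 CPM and a median of 0.570 CPM in the supplemented libraries. Gzmb, the granzyme that cleaves after aspartate, had 0.318, 0 and 1.76 CPM in the deficient, 0.221, 0 and 0.617 CPM in the restricted and 0.819, 0 and 0 CPM in the adequate libraries, with 0 to 1.52 CPM and a median of 0.302 CPM in the supplemented libraries. Both granzymes were at 0 in libraries of 3 or more diets and highest in deficient replicate 3.

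The transcription factor and receptor of this group with the smallest p-values were both absent from the adequate libraries. Tbx21, the T-bet factor of type 1 immunity, had 0.424, 0.753 and 1.55 CPM in the deficient, 0.276, 0 and 0.555 CPM in the restricted and 0 CPM in each of the 3 adequate libraries, with 0 to 1.49 CPM and a median of 0.731 CPM in the supplemented libraries. Klrd1, the CD94 receptor subunit, had 0.247, 0.702 and 0.811 CPM in the deficient, 0.332, 0 and 0.555 CPM in the restricted and 0 CPM in each of the 3 adequate libraries, with 0 to 0.222 CPM and a median of 0.0727 CPM in the supplemented libraries. Every deficient library lay above every adequate library for both genes, and for Klrd1 every deficient library also lay above every supplemented library. Ncr1 had 0.177, 0 and 1.76 CPM in the deficient, 0.111, 0 and 0.493 CPM in the restricted and 0 CPM in each of the 3 adequate libraries, with 0 to 0.744 CPM and a median of 0.146 CPM in the supplemented libraries. Besides the 3 adequate libraries, 5 others had no Ncr1 count. Prf1, Klrb1c, Klrk1 and Eomes averaged 0.0933 to 0.177 TPM, and Klrk1 and Eomes were highest in supplemented replicate 6. Klr genes belong to a family of close relatives, and how the counting divided reads between them is not known, although no Klr member held the same counts as another ID in every library. Tnfrsf17, with its 4 counts, was the only member that did.

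In the B and plasma group, Pax5 was the most abundant at 1.48 TPM on average. Its values were 3.64, 4.77 and 3.92 CPM in the deficient, 3.04, 2.47 and 6.17 CPM in the restricted and 1.39, 0.652 and 3.73 CPM in the adequate libraries, with 0.9298 to 7.06 CPM and a median of 3.44 CPM in the supplemented libraries. Its highest library was supplemented replicate 2, and the diets overlapped. Cd79a, the alpha chain beside membrane immunoglobulin, had 2.01, 4.92 and 3.58 CPM in the deficient, 4.09, 0.504 and 0.493 CPM in the restricted and 0.945, 1.15 and 2.41 CPM in the adequate libraries, with 0.264 to 3.899 CPM and a median of 1.63 CPM in the supplemented libraries. Cd79b, the beta chain, had 3.07, 0.953 and 10.6 CPM in the deficient, 1.22, 0.454 and 0.802 CPM in the restricted and 1.07, 1.86 and 0.591 CPM in the adequate libraries, with 0.278 to 5.05 CPM and a median of 1.35 CPM in the supplemented libraries. The receptor chains were highest in different libraries, Cd79a in deficient replicate 2 and Cd79b in deficient replicate 3.

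Pou2af1, the coactivator OBF-1 of B cells, had 0.953, 1.41 and 6.35 CPM in the deficient, 0.221, 0.151 and 0.432 CPM in the restricted and 0.0630, 0.602 and 0 CPM in the adequate libraries, with 0 to 2.08 CPM and a median of 0.662 CPM in the supplemented libraries. All 3 deficient libraries lay above all 3 restricted and all 3 adequate libraries. Jchain, which joins IgA and IgM into polymers in plasma cells, had 0.812, 0.401 and 2.36 CPM in the deficient, 0, 0 and 1.73 CPM in the restricted and 0.252, 1.304 and 0.318 CPM in the adequate libraries, with 0 to 0.866 CPM and a median of 0.315 CPM in the supplemented libraries. Fcrla, a B cell protein related to Fc receptors, had 1.02, 0.452 and 3.04 CPM in the deficient, 0.0553, 0.101 and 0.863 CPM in the restricted and 1.39, 1.15 and 0.0909 CPM in the adequate libraries, with 0 to 2.03 CPM and a median of 0.09895 CPM in the supplemented libraries. Neither Jchain nor Fcrla separated the deficient from the adequate libraries, since adequate replicate 2 exceeded deficient replicates 1 and 2 in both. Ms4a1, which encodes CD20, and the kinase gene Blk averaged 0.165 and 0.114 TPM and were highest in deficient replicate 3.

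Each contrast was read from a single edgeR quasi-likelihood fit of all 15 libraries, with Benjamini-Hochberg adjustment over the 16001 genes tested and a threshold of 0.05. No member passed it in any of the 6 pairs of diets or in the test of any difference among the diets. The 3 contrasts with the adequate diet share its 3 libraries, so their values are not independent of each other. The filter admits a gene through the diet where it is high, so counts and medians below describe the genes that passed and support nothing on their own.

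Deficient against adequate had the most members under an unadjusted 0.05. Of the 33 members, 0 were called by edgeR, where 0.00625% of all genes were, 6 had an unadjusted p under 0.05, all higher in the deficient libraries (15.1% of all genes, 9.29% higher and 5.84% lower), and 32 had a fold change above 0 (52.9% of all genes). DESeq2 called 1 member, Tbx21 (adjusted p = 0.0191), where it called 3.66% of all genes, gave no adjusted p for Klrd1, and had 11 members under an unadjusted 0.05 (17.8% of all genes). Limma-voom called 0 (0.00625% of all genes) and had 4 under an unadjusted 0.05 (12.2%). The lowest adjusted p of Tbx21 over the alternatives was the DESeq2 value and the highest was 0.701. Median log2 fold changes were 1.74 in the T genes, 2.47 in the NK and cytotoxic genes and 1.63 in the B and plasma genes, against 0.04 over all genes tested.

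Tbx21 had 50 counts in the deficient libraries and 0 in the adequate libraries (edgeR adjusted p = 0.169). With 3 counts over the adequate group as the floor this is 15.3-fold higher, a bound that leaves out the counting error of the 50. Klrd1 had 33 counts in the deficient libraries and 0 in the adequate libraries, 10.1-fold higher at the same floor (edgeR adjusted p = 0.191). Their fitted fold changes depend on the prior count of the fit and are not given as sizes. Both genes kept an unadjusted p under 0.05 without deficient replicate 3 (edgeR adjusted p = 0.527 for Tbx21 and 0.576 for Klrd1). The 3 adequate libraries that held neither gene had 18836069 to 23006267 counts in all. Adequate replicate 1 had the lowest TMM factor of the 15 libraries, 0.6903, so that its 23006267 counts came to an effective library size of 15873131, against 19941193 and 21992057 in adequate replicates 2 and 3. Without adequate replicate 1 the NK and cytotoxic median of deficient over adequate was 3.71.

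Cd8a followed at a log2 fold change of 3.12 with an SE of 1.12 (edgeR adjusted p = 0.225). Pou2af1 had 3.66 (SE 1.47, edgeR adjusted p = 0.267) and Cd3g had 4.92 (SE 2.06, edgeR adjusted p = 0.277) on the same log2 scale. The Cd3g value rests on 68 counts in the deficient against 2 counts in the adequate libraries, a ratio of 31.2 with an exact 95% counting interval of 8.30 to 263. That interval pools the libraries of a diet and covers counting error only, without the spread between libraries that enters the SE. Cd79b had 2.05 (SE 0.95, edgeR adjusted p = 0.322). The smallest log2 fold changes in their groups were those of Lck, 0.40 (SE 0.45), Fcrla, 0.77 (SE 1.57), and Eomes, a T-box factor of NK and memory T cells, which had the only value below 0, -0.37 (SE 1.53). None of these differences exceeded the spread between libraries by the adjusted test.

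Without regard to the fit, 10 of the 36 members had every deficient library above every adequate library and 0 had the reverse, where 7.91% and 7.96% of all genes tested did. They were the T genes Cd3g, Cd4, Cd8a, Cd5, Cd6 and Cd28, the cytotoxic genes Prf1, Klrd1 and Tbx21, and the B gene Pou2af1. Without deficient replicate 3, 2 of 34 members tested had an unadjusted p under 0.05, where the share of all genes was 7.02%, and 10 of the 36 members had every deficient library above and 1 every deficient library below the adequate libraries (11.9% and 10.7% of all genes). The medians were then 0.91 in the T genes, 0.52 in the NK and cytotoxic genes and 1.16 in the B and plasma genes. Cd3g then had a log2 fold change of 3.05, Pou2af1 of 2.37, Cd8a of 2.36 and Cd79b of 0.78. Fcrla turned to -0.23, while Eomes had -2.27.

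**Figure D3:**
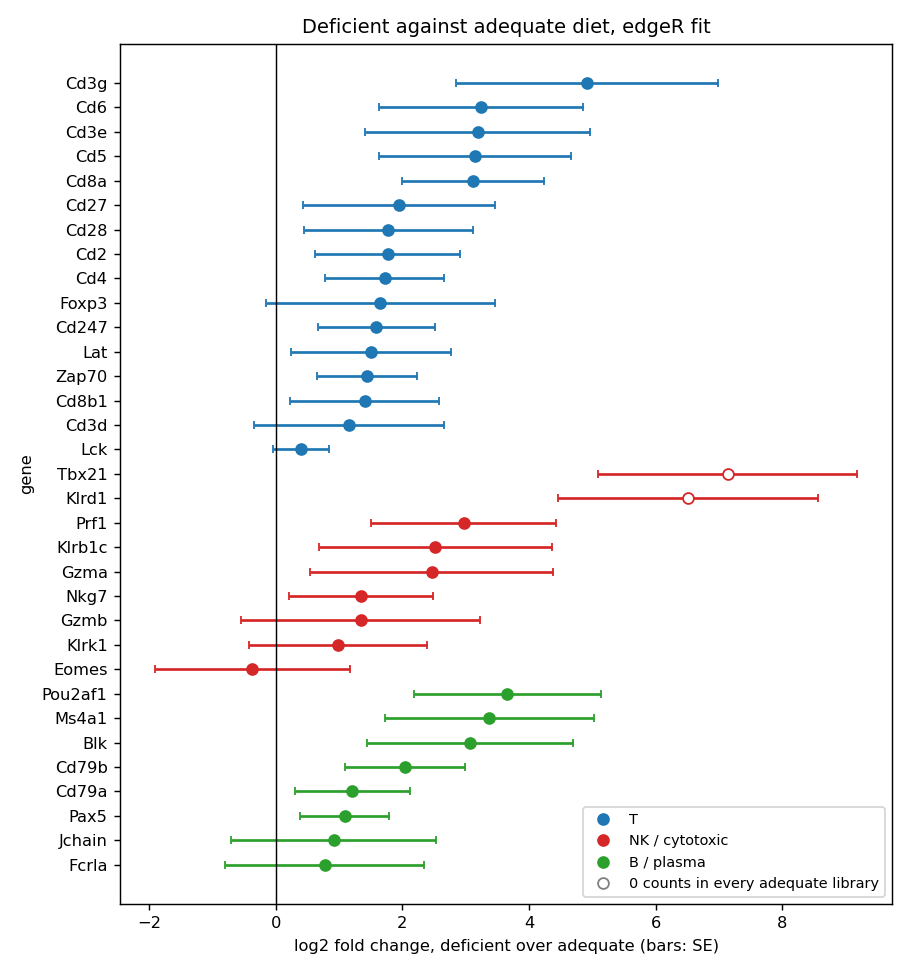
Log2 fold change of the deficient over the adequate diet with its SE for the 33 members tested, by group, from the edgeR fit of 15 libraries (deficient n = 3, adequate n = 3). Eomes is the only point below 0, Lck lies close to 0 with the shortest bar, and the open points, Tbx21 and Klrd1, had 0 counts in every adequate library so that their position depends on the prior count.

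The restricted diet differed less from the adequate diet. No member was called by edgeR, DESeq2 or limma-voom, and 0% of all genes were called by edgeR and limma-voom and 0.819% by DESeq2. Under an unadjusted 0.05 stood Klrd1 and Tbx21 (2 of 33, against 9.17% of all genes). They had 15 and 14 counts in the restricted libraries against 0 in the adequate libraries, 5.34-fold and 4.98-fold higher at the floor of 3 counts. In both genes restricted replicate 2 was at 0 as well. Cd5, a T cell receptor that dampens signalling, and Zap70, the kinase that binds zeta, had every restricted library above every adequate library (2 of 36, against 8.37% of all genes, with 0 the other way against 8.27%). Medians were 1.00 in the T genes, 0.48 in the NK and cytotoxic genes and 0.21 in the B and plasma genes on the log2 scale, and 26 of 33 members had a fold change above 0 (50.4% of all genes). Without restricted replicate 3 the T median was 0.20, the NK and cytotoxic median -1.03 and the B and plasma median -0.37. The NK and cytotoxic median was 1.76 without adequate replicate 1.

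On the supplemented diet, too, no member was called against the adequate diet by edgeR, DESeq2 or limma-voom (0%, 0.856% and 0.0187% of all genes by each tool in that order). Tbx21 alone had an unadjusted p under 0.05 (1 of 33, against 9.77% of all genes, edgeR adjusted p = 0.322). It had 81 counts in the supplemented and 0 in the adequate libraries, 13.4-fold higher at the floor of 3 counts. Supplemented replicate 2 had no Tbx21 count, and no member separated the diets (0 of 36, against 2.14% of all genes higher and 2.24% lower). Median log2 fold changes were 1.01 in the T genes, 0.73 in the B and plasma genes and 1.18 in the NK and cytotoxic genes, or 1.03 with Tbx21 and Klrd1 set at their bounds, and 29 of 33 were above 0 (52.9% of all genes). For each of these 3 groups the medians against the adequate diet were above 0 on all 3 other diets with all libraries in the fit, in contrasts that share the adequate libraries, and those of the NK and B groups on the restricted diet turned below 0 without restricted replicate 3. The NK and cytotoxic median of supplemented over adequate was 2.60 without adequate replicate 1 and 0.69 without supplemented replicate 3.

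Between the deficient and restricted diets edgeR, DESeq2 and limma-voom called 0 members (0% of all genes by edgeR and limma-voom, 0.0562% by DESeq2), and 2 of 33 had an unadjusted p under 0.05 (7.44% of all genes). These were the B genes Cd79b, at a log2 fold change of 2.55 with an SE of 0.97 (edgeR adjusted p = 0.649), and Pou2af1, with 3.41 (SE 1.46, edgeR adjusted p = 0.649). Only Pou2af1 had every deficient library above every restricted library (1 of 36, against 4.71% of all genes, with 0 the other way against 6.38%). Medians were 2.34 in the B and plasma genes, 1.28 in the NK and cytotoxic genes and 1.04 in the T genes, with 32 of 33 above 0 (51.9% of all genes). Without deficient replicate 3 they were 1.21, 0.28 and 0.29 in the same order of groups, and 0 members had an unadjusted p under 0.05 (2.42% of all genes). Cd79b then had a log2 fold change of 1.29 and Pou2af1 of 2.12.

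Against the supplemented diet, the deficient diet had 1 of 33 members under an unadjusted 0.05 (5.45% of all genes), Klrd1, at a log2 fold change of 2.78 with an SE of 1.23 (edgeR adjusted p = 0.870). The restricted diet had 0 (2.18% of all genes). EdgeR, DESeq2 and limma-voom called 0 members in both contrasts (0% of all genes by each tool), while limma-voom had 5 under an unadjusted 0.05 in the first of them (3.86% of all genes). Klrd1 was also the only member with no overlap between deficient and supplemented libraries (1 of 36, against 1.01% of all genes, with 0 the other way against 0.9%), and none lacked overlap between restricted and supplemented libraries (1.32% of all genes higher, 0.787% lower). Median log2 fold changes of the deficient over the supplemented diet were 1.09 in the T genes, 0.57 in the NK and cytotoxic genes and 1.41 in the B and plasma genes, and without deficient replicate 3 they were 0.23, -0.37 and 0.43, with a log2 fold change of 2.49 for Klrd1 and 0 members under an unadjusted 0.05 (2.41% of all genes). The fold change was above 0 in 32 of 33 members (52.5% of all genes). Medians of the restricted over the supplemented diet were -0.02, -0.70 and -0.85, with 12 of 33 above 0 (48.3% of all genes). Without restricted replicate 3 they were -0.80, -2.26 and -2.29, and without restricted replicate 2 the T median was 0.46.

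Across all 4 diets at once, 3 of 33 members had an unadjusted p under 0.05 (9.47% of all genes), Tbx21 (edgeR adjusted p = 0.453), Klrd1 (edgeR adjusted p = 0.464) and Pou2af1 (edgeR adjusted p = 0.512). No member was called by edgeR, where 0.00625% of all genes were, nor by DESeq2 (1.69% of all genes) or limma-voom (0%). Leaving out deficient replicate 3, 1 of 34 members had an unadjusted p under 0.05 (6.77% of all genes).

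The balance of the lineages was compared with ratios of their defining genes, in 24 exact two-sided permutation tests over 4 ratios and 6 pairs of diets. With 3 libraries against 3 the smallest p such a test can give is 0.1, and with 6 against 3 it is 0.0119, which alone would be 0.286 after adjustment over the 24 tests, so no single ratio could pass the threshold in this design. The smallest p was 0.0952 for Cd8a over Cd4 in supplemented against adequate libraries, where the mean log2 ratio was -0.62 in the supplemented and -1.57 in the adequate libraries, and its adjusted p over the 24 exact tests was 1.0. Ratios of Cd3e to Cd79a, where Cd3e was at 0 in 4 libraries, likewise had an adjusted p of 1.0 in each exact test. Ratios of Cd3e to Ncr1 and of Foxp3 to Cd3e are not read, because both genes of the ratio were at 0 in 4 and 3 libraries and Ncr1 was at 0 throughout the adequate diet, so that the prior count sets the value there. The mean log2 ratio of Cd8a to Cd4 was -0.79 in the 3 deficient libraries, or -1.08 without deficient replicate 3, and -1.57 in the adequate libraries.

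Members of a group mostly varied together over the 15 libraries, as a description without a test. The Spearman correlation of a member's log2 CPM with the mean of the other tested members of its group had a median of 0.67 in the T genes, 0.70 in the NK and cytotoxic genes and 0.60 in the B and plasma genes. Cd4 (0.90), Gzma (0.88) and Pou2af1 (0.87) followed their groups most closely. Lck (0.29), Cd79a (0.25) and Pax5 (0.08) followed them least, although they were among the members with the most counts. Without deficient replicate 3 the medians were 0.60, 0.63 and 0.50 in the same order, with Pax5 at 0.02, Cd79a at 0.16 and Lck at 0.25, and Cd3d at 0.23 then lay below Lck. All values come from the same libraries and share depth and lung content. With the alveolar gene Sftpc in place of the group, the medians over 15 libraries were 0.44, 0.67 and 0.69 in the same order. In the B and plasma genes that is above the median with their own group, and in the NK and cytotoxic genes just below it. How all genes correlated with the group means was not computed.

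Lck, Pax5 and Cd79a were also the members with the smallest spread, chosen here after their values were seen. The SD over the mean of CPM was 0.363 for Lck, 0.545 for Pax5 and 0.713 for Cd79a, against a median of 1.07 over the 33 members. Without deficient replicate 3 it was 0.366 for Lck, 0.570 for Pax5 and 0.749 for Cd79a, against a median of 0.898, and Zap70 (0.577), Cd247 (0.593) and Cd4 (0.732) were then below Cd79a. Together they held 3338 of the 10185 member counts (32.8%), from 14.9% in deficient replicate 3 to 63.3% in adequate replicate 3. With Lck left out, the T sum was 23.3 ± 17.3 CPM in the deficient (SD, n = 3) and 5.92 ± 1.61 CPM in the adequate libraries (SD, n = 3). With Pax5 and Cd79a left out, the B and plasma sum was 13.3 ± 13.3 CPM in the deficient (SD, n = 3) and 3.19 ± 2.11 CPM in the adequate libraries (SD, n = 3), and the lowest deficient library, at 3.46 CPM, then lay within the adequate range of 1.00 to 5.21 CPM.

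**Figure D4:**
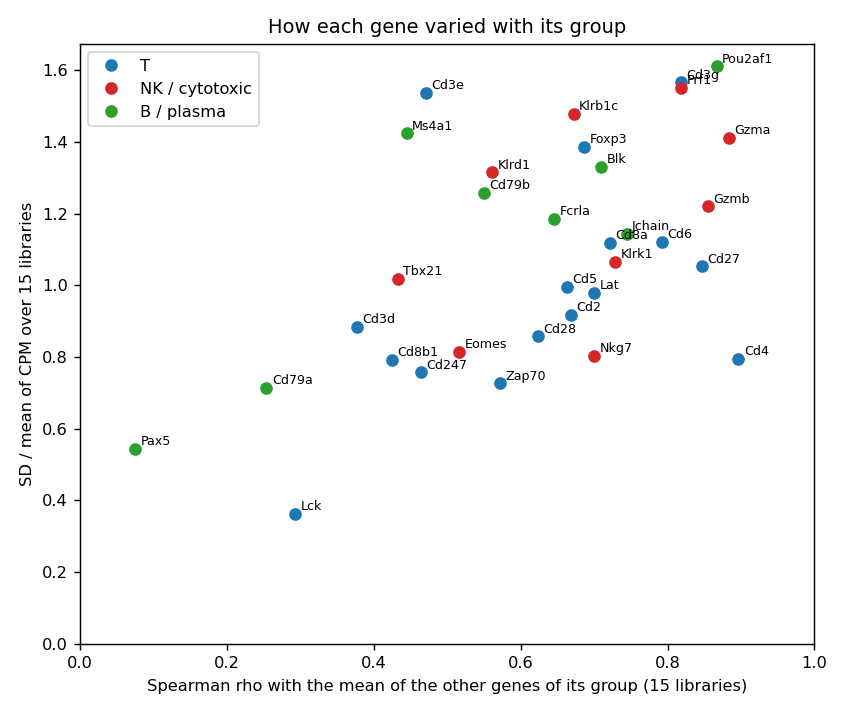
For each of the 33 members tested, the Spearman correlation with the mean of the other members of its group over 15 libraries (horizontal) and the SD over the mean of CPM (vertical). Pax5, Cd79a and Lck sit at the lower left, with low correlation and small spread, and Gzma, Pou2af1 and Cd4 sit at the right.

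By median Spearman correlation, the 33 members tested went with general leukocyte RNA and with the alveolar gene Sftpc, but not every member did. Ptprc, which encodes the leukocyte marker CD45, averaged 25.3 ± 17.3 CPM in the deficient (SD, n = 3), 8.51 ± 4.81 in the restricted (SD, n = 3), 7.91 ± 2.27 in the adequate (SD, n = 3) and 12.6 ± 5.28 CPM in the supplemented libraries (SD, n = 6). Deficient over adequate, the log2 fold change of Ptprc was 1.68 with an SE of 0.51 (edgeR adjusted p = 0.175, DESeq2 adjusted p = 0.0341), and without deficient replicate 3 it was 0.97 (edgeR adjusted p = 0.727). The members' Spearman correlation with Ptprc over the 15 libraries had a median of 0.51 and was above 0 in 33 of 33, where the median over all 16001 genes tested was -0.01 and 49.4% were above 0. With Sftpc the members' median was 0.60, above 0 in 32 of 33 (all genes 49.4%), and with Tyr it was -0.19, above 0 in 4 of 33 (all genes 51.3%). Lck had only 0.086 with Ptprc and -0.075 with Sftpc, and Cd79a had 0.0036 and 0.14. Pax5 had 0.37 with Ptprc and 0.029 with Sftpc. Without deficient replicate 3 the members' median was 0.40 with Ptprc (above 0 in 31 of 33, all genes 51.02%), 0.50 with Sftpc (31 of 33, all genes 50.64%) and -0.0044 with Tyr (16 of 33, all genes 52.52%). By group over all 15 libraries, the T median was 0.47 with Ptprc and 0.44 with Sftpc, or 0.35 with each without deficient replicate 3. The NK and cytotoxic median was 0.56 with Ptprc and 0.67 with Sftpc, or 0.46 and 0.60 without that library. The B and plasma median was 0.55 with Ptprc and 0.69 with Sftpc, or 0.45 and 0.62 without it. With the level of Ptprc as a covariate, the deficient over adequate medians were 0.44 in the T genes, -0.90 in the NK and cytotoxic genes and 0.75 in the B and plasma genes. Lymphocytes are leukocytes and contribute to Ptprc, so this covariate also takes out part of their own RNA. The cause of the shift was not tested.

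Of 15 relations between lineage genes and these markers, none had an adjusted permutation p under 0.05. The relation with the smallest raw permutation p was Cd3e with Ncr1 (Pearson r = 0.62, p = 0.0130, adjusted p = 0.0919, Spearman rho = 0.54, p = 0.0417, adjusted p = 0.560, n = 15). Its r was 0.33 without the 2 libraries farthest from the median of Cd3e, 0.54 with the mean of each diet removed and 0.44 within the 6 supplemented libraries. Both genes were at 0 in 4 of the 15 libraries and Ncr1 in 8, and there the prior count sets the values that enter this r. Cd3e with Cd79a had r = 0.15 (permutation p = 0.587, adjusted p = 0.769) and rho = 0.02 (permutation p = 0.935, adjusted p = 0.998) over the same 15 libraries. Without its 2 farthest libraries r was -0.07.

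**Figure D5:**
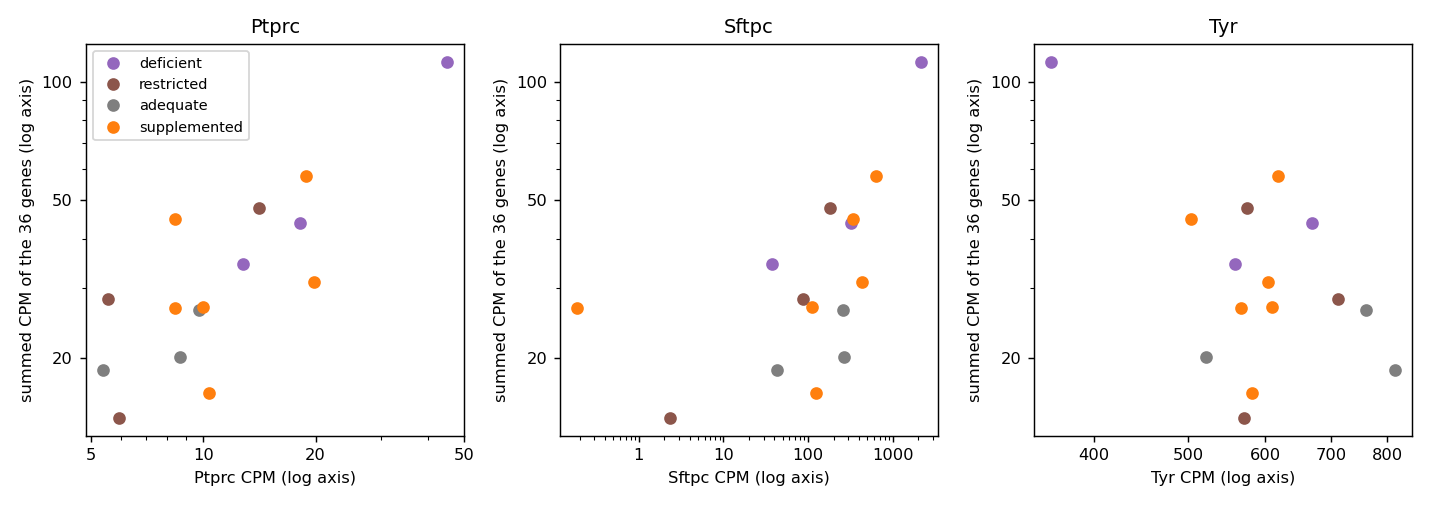
Summed CPM of the 36 members in each library against the CPM of Ptprc (leukocytes), Sftpc (alveolar type 2 cells) and Tyr (melanoma cells), on log axes, coloured by diet. Deficient replicate 3, at 112 summed CPM, lies at the highest Ptprc and Sftpc and the lowest Tyr value, and supplemented replicate 5, at 26.7 summed CPM, has almost no Sftpc.

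No gene of 4 further lists of lymphocyte genes was called by edgeR or limma-voom for deficient against adequate, and DESeq2 called 9, where it called 3.66% of all genes. Of 30 further T genes 24 were tested, and 6 had an unadjusted p under 0.05 for deficient against adequate, all higher, where 9.29% of all genes were higher by that measure. DESeq2 called Lcp2, Il7r and Ikzf3 among them, and without deficient replicate 3 edgeR had 4 of 26 under an unadjusted 0.05 (7.02% of all genes). Lcp2, the SLP-76 adaptor, had 10.03, 10.2 and 14.1 CPM in the deficient, 7.08, 7.77 and 8.51 CPM in the restricted and 4.16, 3.96 and 2.27 CPM in the adequate libraries, with 3.53 to 8.23 CPM and a median of 5.16 CPM in the supplemented libraries. Every deficient and every restricted library lay above every adequate library for Lcp2, and the deficient over adequate log2 fold change was 1.72 with an SE of 0.34 (edgeR adjusted p = 0.149, DESeq2 adjusted p = 0.000964), or 1.55 without deficient replicate 3. Lcp2 averaged 6.72 CPM against 0.344 CPM for Cd3e, and had 10.2 CPM in deficient replicate 2, where Cd3e was at 0. Which cells its RNA came from was not tested. Il7r, the receptor for the survival cytokine of naive T cells, had 2.61, 1.51 and 9.59 CPM in the deficient, 1.27, 0.0504 and 0.802 CPM in the restricted and 0.378, 0.702 and 0.364 CPM in the adequate libraries, with 0.744 to 3.04 CPM and a median of 1.53 CPM in the supplemented libraries. Its deficient over adequate log2 fold change was 3.22 (SE 0.95, edgeR adjusted p = 0.169, DESeq2 adjusted p = 0.0172), or 2.08 without deficient replicate 3.

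Of 24 further B and plasma genes 21 were tested, and 8 had an unadjusted p under 0.05, all higher in the deficient libraries (9.29% of all genes higher). DESeq2 called 3 of them, Ighm, Fcmr and Cxcr5, and without deficient replicate 3 edgeR had 3 of 21 under an unadjusted 0.05 (7.02% of all genes). This list also holds Jchain and genes that other cells express, such as Sdc1 and Cd72, which averaged 114 and 34.1 CPM. Ighm, the constant region of IgM, had 12.3, 8.98 and 59.2 CPM in the deficient, 3.43, 2.62 and 10.7 CPM in the restricted and 3.15, 5.77 and 1.64 CPM in the adequate libraries, with 2.56 to 10.9 CPM and a median of 5.31 CPM in the supplemented libraries. All 3 deficient libraries exceeded all 3 adequate libraries in Ighm (log2 fold change 2.93, SE 0.78, edgeR adjusted p = 0.150, DESeq2 adjusted p = 0.00625), and without deficient replicate 3 the log2 fold change was 1.60. Fcmr, a receptor for IgM, had 1.87, 0.602 and 4.66 CPM in the deficient, 0.332, 0 and 0.493 CPM in the restricted and 0, 0.1003 and 0.0909 CPM in the adequate libraries, with 0 to 1.097 CPM and a median of 0.529 CPM in the supplemented libraries. Its log2 fold change was 5.03 (SE 1.60, edgeR adjusted p = 0.189, DESeq2 adjusted p = 0.0241), or 4.11 without deficient replicate 3.

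Only 5 of 21 further NK and cytotoxic genes were tested, and 1 had an unadjusted p under 0.05 (9.29% of all genes higher, 15.1% in all), with 0 of 6 without deficient replicate 3. This was Tyrobp, the DAP12 adaptor that macrophages also use, which averaged 28.7 ± 19.4 CPM in the deficient and 15.3 ± 5.51 CPM in the adequate libraries (SD, n = 3 each, edgeR adjusted p = 0.295). Il18rap, a subunit of the interleukin 18 receptor, averaged 1.95 ± 1.12 CPM in the deficient and 0.481 ± 0.191 CPM in the adequate libraries (SD, n = 3 each, edgeR adjusted p = 0.363). Among 12 tested of 17 genes that attract lymphocytes or keep them alive, 4 had an unadjusted p under 0.05, all higher in the deficient libraries (9.29% of all genes higher), and 2 of 12 did without deficient replicate 3 (7.02% of all genes). DESeq2 called 2 of them, Cxcl12 and Ccl22. Ikzf3, Cxcr5 and Ccl22 are named here after their values were seen.

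Cxcl12, the ligand of the receptor Cxcr4, had 17.7, 31.6 and 138 CPM in the deficient, 10.2, 21.3 and 20.6 CPM in the restricted and 9.198, 13.4 and 6.502 CPM in the adequate libraries, with 12.4 to 24.4 CPM and a median of 15.98 CPM in the supplemented libraries. Every deficient library lay above every adequate library (log2 fold change 2.68, SE 0.58, edgeR adjusted p = 0.149, DESeq2 adjusted p = 0.000789), and without deficient replicate 3 the log2 fold change was 1.34. Cxcl11, an interferon-induced ligand of the T cell receptor Cxcr3, had 21.8, 11.3 and 9.12 CPM in the deficient, 22.2, 22.5 and 27.3 CPM in the restricted and 15.9, 12.6 and 15.6 CPM in the adequate libraries, with 5.48 to 17.8 CPM and a median of 8.797 CPM in the supplemented libraries. Its mean was highest on the restricted diet, with an edgeR adjusted p of 0.433 for any difference among the diets. The 3 restricted libraries lay above every other library, though the lowest, at 22.2 CPM, only just exceeded deficient replicate 1 at 21.8 CPM. Cxcl11 was named for its small p, and the share of all genes with this pattern was not counted. None of the genes in these 4 lists was called by edgeR in any pair of diets or for any difference among the diets. For any difference DESeq2 called Lcp2, Il7r, Ighm and Cxcl12, where it called 1.69% of all genes. All of them were among the genes named here for a small edgeR p in the test of any difference.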

How the data were processed

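The deposited files hold, per gene and library, expected counts (estimated read numbers) and TPM values, which the authors made with Bowtie2 2.2.9 and RSEM 1.30 and followed with edgeR, on genome build NCBIM37, per the submitters' processing notes. Libraries were ribosomal RNA depleted and strand-marked, per the labels' protocols. No source used here gives the strand setting or annotation release. A table of gene names gave symbols to 32897 of the 37620 IDs, and exon overlaps were read from GENCODE vM21 annotation.

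Expected counts were rounded. edgeR 4.0.16 in R 4.3.3 (filterByExpr by diet, TMM, quasi-likelihood F-test) was fitted to all 15 libraries with a mean per diet, 11 residual degrees of freedom and a biological coefficient of variation of 0.461. Alternatives were limma-voom (limma 3.58.1) and DESeq2 1.42.0. The script was tested on simulated data. CPM were scaled by TMM, with a prior count of 2 before taking logs. Bounds take 3 counts over the group at 0 as the floor and the count of the other group as observed. They cover counting error in the group at 0 only. Correlations and permutation tests used scipy. Replicates are numbered in accession order, and the labels give no batch or pairing.

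The members and all lists were chosen with earlier results of these data known. The genes given per library are the lineage-defining Cd3e, Cd4, Cd8a, Foxp3, Ncr1, Gzmb, Cd79a, Jchain and Fcrla, the 3 of each group with the highest mean TPM and the 2 of each group with the smallest p for any difference. Of other lists they are the 2 with the smallest such p. A planned search of the proteins for receptor motifs was not done. A gene of the further T list is not reported here.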

Additional observations from a re-analysis of the deposited data

Results flagged for a closer look

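In the 36 groups of supplemented values examined, 1 for each member, a gap test for a single distant library marked 2, and chance marks about 1 in 20 groups. Klrk1, the activating receptor NKG2D, had 2.63 CPM in supplemented replicate 6, where the next highest of the 6 supplemented libraries had 0.622 CPM. Cd79b had 5.05 CPM in supplemented replicate 6, where the next highest supplemented library had 1.94 CPM. The same library had the highest summed CPM of all 36 members among the supplemented libraries, 57.5.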

How the results depend on the processing

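No paired analysis was possible because the labels give no replicate numbers or pairing. Deficient over adequate, 1 gene was called in the whole table, against 585 with DESeq2 (which called 1 member), 0 without a filter, 0 in a fit of the 2 diets alone, 0 with the alveolar or the Ptprc covariate, 5 without adequate replicate 1, supplemented replicate 5 and deficient replicate 3 together, and 0 to 4 leaving out single libraries. Restricted over adequate, 0 were called, against 131 with DESeq2, 34 with the alveolar covariate, 66 without those 3 libraries and 0 to 5 leaving out single libraries. Supplemented over adequate, 0 were called, against 137 with DESeq2, 3 with limma-voom and 2 without the 3 libraries. Deficient over restricted, DESeq2 called 9. For any difference, 1 was called, against 270 with DESeq2, 0 with limma-voom, 8 without a filter, 2 with the alveolar covariate, 3 without the 3 libraries and 0 to 2 leaving out single libraries.

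Median log2 fold changes moved as follows. The NK and cytotoxic median of deficient over adequate was 0.97 in a fit of the 2 diets and 0.69 with the alveolar covariate. With the Ptprc covariate it was -0.90, and the T and B medians were 0.44 and 0.75. Deficient over restricted, the B median was 0.57 and the NK median -0.54 with the alveolar covariate, and with Ptprc the B, NK and T medians were 0.052, -0.53 and -0.50. Deficient over supplemented, the B, NK and T medians were -0.068, -1.22 and 0.066 with Ptprc. Without the 3 libraries, the NK median was 1.76 for restricted over adequate and 2.86 for supplemented over adequate, the B median was 1.22 for deficient over restricted, and the B, NK and T medians were 0.30, -0.63 and 0.21 for deficient over supplemented. The cause was not tested.

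Leaving out single libraries, the NK median ran from 0.52 (without deficient replicate 3) to 3.71 (without adequate replicate 1) for deficient over adequate, from -1.03 to 1.76 for restricted over adequate, from 0.69 to 2.60 for supplemented over adequate, from 0.28 to 2.57 for deficient over restricted, and from -2.26 to -0.22 for restricted over supplemented. The B median ran from 1.21 to 3.56 for deficient over restricted, from 0.43 to 1.93 for deficient over supplemented and from -2.29 to -0.35 for restricted over supplemented. The B median ran from -0.37 to 0.46 for restricted over adequate. The T median ran from 0.23 to 1.42 for deficient over supplemented, from 0.20 to 1.42 for restricted over adequate and from -0.80 to 0.46 for restricted over supplemented, each lowest without replicate 3 of the diet named first. Correlations and non-overlap counts without deficient replicate 3 were chosen after seeing the data. No member was called when a single library was left out. The relations kept their side of the threshold with prior counts of 0.5 and 5. The ratios did so too, but no single ratio could pass it in this design, so that says nothing on the prior count. Most members had under 10 counts in several libraries, which limits what a fold change can show.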
